A study of Mus musculus with 2 samples.

Results

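The integrins and laminins are the receptors and the basement membrane proteins through which cells hold to the matrix, and their genes were compared here between whole pancreas of a WT mouse and of a mouse without nardilysin in pancreatic epithelium. Members were taken by symbol: every Itga, Itgb, Lama, Lamb or Lamc gene of the RefSeq gene table, with the Itgb1bp and Itgb3bp genes left out. This gave 38 genes, 27 integrin and 11 laminin genes, of 22911 genes named by a probe, and all 38 had at least 1 probe.

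Integrins are heterodimers of an alpha and a beta chain that bind matrix proteins or counter-receptors on other cells and couple them to the actin cytoskeleton. Laminins are trimers of an alpha, a beta and a gamma chain that assemble into sheets of the basement membrane, and the alpha chain carries the main site for integrins. In the pancreas, basement membranes surround acini, ducts, vessels and nerves and border the islets, while leukocytes carry integrins of their own that are used for adhesion to endothelium.

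The WT mouse was a C57BL/6 male aged 5 weeks, and the labels give no further allele for it. The Nrdc-cKO mouse was a C57BL/6 male of the same age with Ptf1a-Cre and Nrdc flox/flox alleles, in which Cre is expressed from Ptf1a, a gene of pancreatic progenitors and acinar cells, so cells without a history of Ptf1a expression keep Nrdc. Total RNA of each pancreas was measured on 1 Agilent 1-colour array, both on 1 slide and read in 1 scan. With 1 array per group the spread between animals is unknown, nothing could be tested, and each difference describes these 2 arrays.

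Levels below are log2 processed signals minus the array's 75th percentile over all probes, and differences are Nrdc-cKO minus WT. The ± after a difference is a technical error, computed from the scanner software's own error of each spot's signal. It had a median of 0.20 over the measured members and leaves out animal, dissection and labelling. A probe counted as detected when it was well above background, and a gene was measured when a probe was detected on both arrays. Probes bind with different strength, so a level is compared only with the same probe on the other array.

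The targeted gene Nrdc was 9.25-fold lower in Nrdc-cKO by its 1 probe, with levels of 1.93 in WT and -1.28 in Nrdc-cKO. The labels do not say which part of the gene is deleted, so this probe may lie outside it. The pancreatic identity of both samples was clear from 12 of 12 acinar markers detected on both arrays, although all 12 were lower by 2-fold or more in Nrdc-cKO (median -2.12, with the protease Ctrl at -4.36). In bulk tissue, fewer cells of a type and less RNA per cell cannot be told apart. The 75th percentile of the Nrdc-cKO array was 1.68 higher on the log2 scale than that of the WT array, and all 26 measured members had the higher signal on the Nrdc-cKO array before scaling. "Higher" and "lower" therefore mean relative to the bulk of probes on each array.

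Integrin and laminin genes were more often higher than lower in Nrdc-cKO. Of the 26 measured members, 14 passed 2-fold upwards, 1 passed it downwards and 11 lay within 2-fold. Over all 13001 measured genes, 12.8% passed 2-fold upwards and 17.3% downwards. The median of the members was 1.06, against -0.18 over all measured genes, and 23 of the 26 lay above that all-gene median. In Nrdc-cKO alone 7 more members were detected, as were 12.4% of all named genes. In WT alone no member was detected, and this was rare over all genes, at 200 of 22911 named genes. The remaining 5, Itga2, Itgad, Itgb2l, Itgb8 and Lama1, were not well above background on either array, as were 30% of named genes. By family, 8 of 17 integrin genes passed 2-fold upwards and 0 downwards (median 0.80, 0.70 for the alpha and 1.15 for the beta chains), and 6 of 9 laminin genes passed it upwards and 1 downwards (median 1.22).

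**Figure D1:**
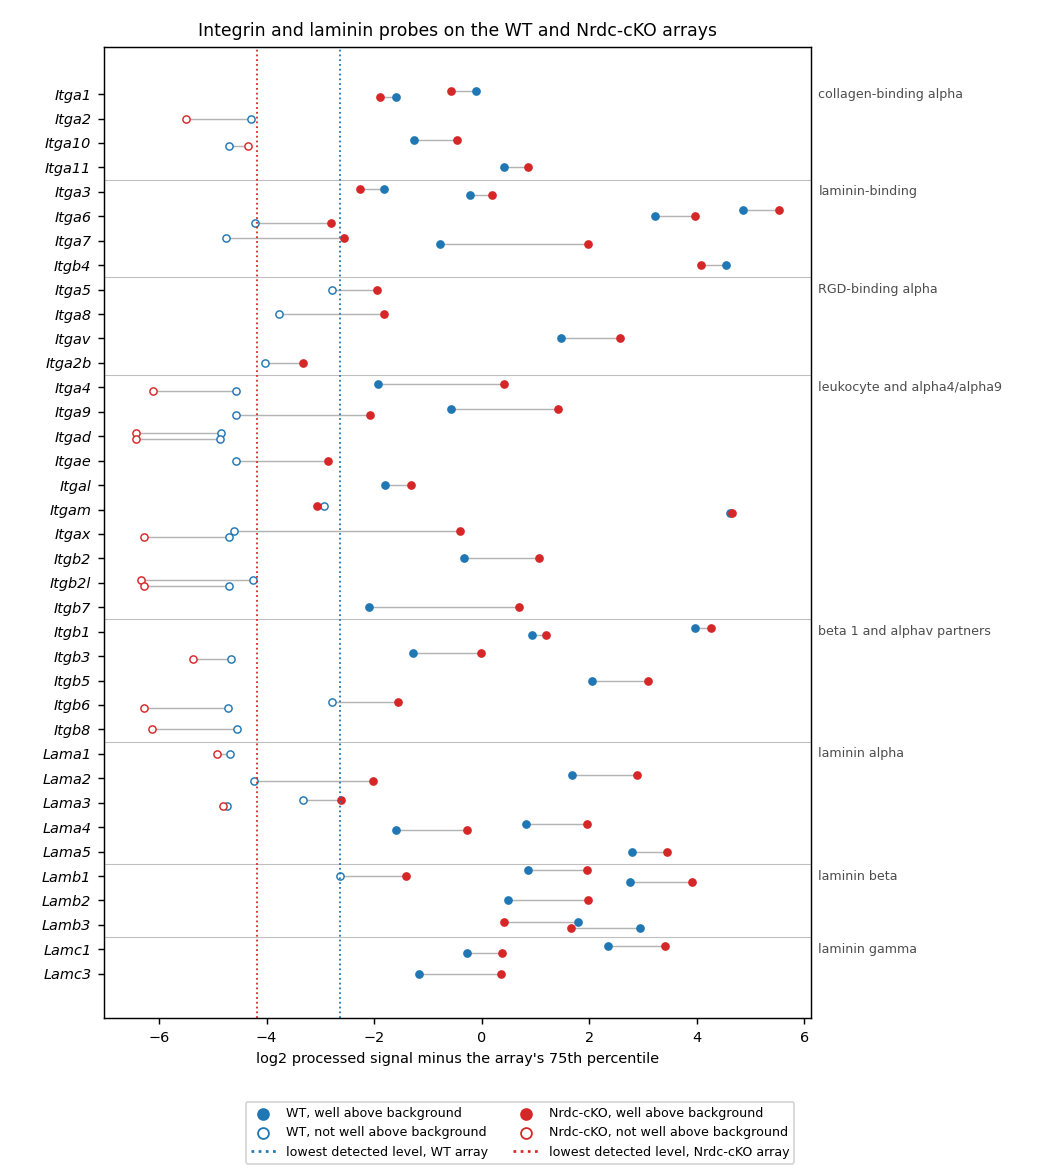
Level of the probes of 37 integrin and laminin genes on the WT array (blue) and the Nrdc-cKO array (red), as log2 processed signal minus the array's 75th percentile, with genes ordered by role. Filled points were well above background and open points were not, a grey line joins the same probe on both arrays, and dotted lines mark the lowest detected level of each array, -2.64 for WT and -4.18 for Nrdc-cKO.

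**Figure D2:**
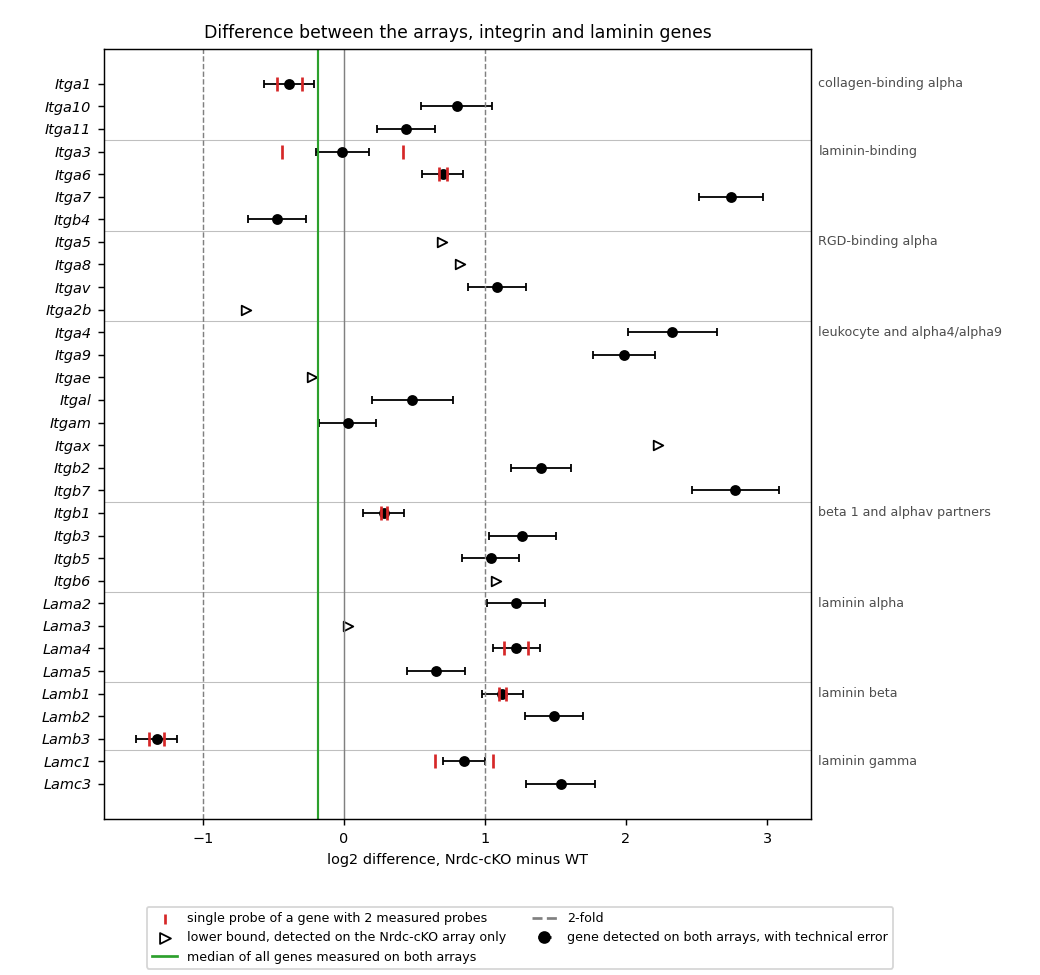
Log2 difference, Nrdc-cKO minus WT, of 25 of the 26 measured genes (black points, with bars for the technical error) and lower bounds for the 7 genes detected in Nrdc-cKO alone (open triangles). Red ticks are single probes, the green line is the median of all measured genes at -0.18, and only Lamb3 lies beyond the lower 2-fold line.

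The laminin alpha chains that were measured were all above 0. Lama2, the chain of muscle and nerve basement membranes, had levels of 1.67 in WT and 2.89 in Nrdc-cKO, a difference of 1.22 ± 0.20. Its other probe was detected in Nrdc-cKO alone. Lama4, the chain of vascular basement membranes, had the same difference within error, 1.22 ± 0.17, and its 2 probes stood at 1.14 and 1.31. Lama5, the widespread epithelial and endothelial chain, had levels of 2.79 and 3.45 and did not reach 2-fold, at 0.66 ± 0.20. Lama3, the alpha chain of the laminin that anchors stratified and ductal epithelium, had 1 of its 2 probes detected, in Nrdc-cKO alone, and was at least 1.02-fold higher there, a bound close to no difference. Lama1, the chain of early embryonic basement membranes, was not well above background on either array.

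Of the beta chains, 2 were above 2-fold and 1 was below it. Lamb1, the most widely used beta chain, was 2.18-fold higher on the Nrdc-cKO array (1.12 ± 0.15), with 2 probes at 1.1 and 1.15. Lamb2, the beta chain of the neuromuscular junction, kidney filter and vessel walls, was 2.81-fold higher, with levels of 0.49 and 1.98 and a difference of 1.49 ± 0.21. Lamb3, a beta chain of epithelial basement membranes, was the single member past 2-fold in the other direction, 2.51-fold lower (-1.33 ± 0.14). Its 2 probes gave levels of 1.79 and 2.94 in WT and 0.41 and 1.67 in Nrdc-cKO, and so differed by -1.38 and -1.27. Before scaling, the signals of these probes were 245 and 545 in WT and 302 and 724 in Nrdc-cKO, so the Lamb3 signal was lower relative to the other probes and not as read.

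Lamc1, the common gamma chain, had levels of 1.04 and 1.89 and stood at 0.85 ± 0.15, with 1 probe at 0.64 and the other at 1.06. Lamc3, a gamma chain known from nervous system and retina, was 2.90-fold higher (1.54 ± 0.24), with a WT signal of 31.5. The chains Lama2, Lama4, Lamb1, Lamb2 and Lamc1 lay between 0.85 and 1.49, and Lama5 lay below these at 0.66. These values do not give the tissue source of a chain.

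The upstream windows of Lamb1 and Lamb3 are shown because these beta chains passed 2-fold in opposite directions. The letters are the 250 bases before the annotated start from RefSeq, build GRCm38.p6, both genes on the plus strand, at chr12:31265043-31265292 for Lamb1 and at chr1:193301744-193301993 and chr1:193301993-193302242 for the 2 starts of Lamb3. Capitals mark matches, on either strand, to any of 4 motifs: GAGGAA, the core bound by the Ets factor PU.1 of myeloid and B cells, TGANTCA, the AP-1 motif, GGGCGG, the GC box, and TATAAA, the TATA box.
Lamb1: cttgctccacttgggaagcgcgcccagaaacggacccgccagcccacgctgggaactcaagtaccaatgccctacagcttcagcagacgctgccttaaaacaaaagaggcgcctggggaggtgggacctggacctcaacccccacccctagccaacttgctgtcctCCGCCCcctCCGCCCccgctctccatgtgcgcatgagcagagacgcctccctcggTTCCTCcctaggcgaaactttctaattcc
Lamb3, first start: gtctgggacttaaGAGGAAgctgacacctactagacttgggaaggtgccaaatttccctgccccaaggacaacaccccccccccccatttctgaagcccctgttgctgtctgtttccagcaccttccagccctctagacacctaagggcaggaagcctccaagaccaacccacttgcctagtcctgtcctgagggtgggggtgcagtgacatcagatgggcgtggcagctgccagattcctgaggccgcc
Lamb3, second start: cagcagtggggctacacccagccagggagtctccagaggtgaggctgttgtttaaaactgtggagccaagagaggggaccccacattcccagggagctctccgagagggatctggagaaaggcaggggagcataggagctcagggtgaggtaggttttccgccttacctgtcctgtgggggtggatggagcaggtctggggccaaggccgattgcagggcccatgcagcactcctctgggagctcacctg
The Lamb1 window held 14 CpG, 2 GC boxes and 1 PU.1 core. The Lamb3 windows held 2 and 3 CpG and no GC box, and the first held 1 PU.1 core. A window was found for 24 of the 38 members, 27 windows in all, and the GC box occurred in 33.3% of these against 32.7% of all 32851 windows. A match is a run of letters, and binding was not measured.

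Among the laminin-binding integrins, Itga7 stood apart. Itga7, the laminin receptor of muscle and Schwann cells, had a signal of 41.6 ± 5.0 in WT and 894 ± 89 in Nrdc-cKO, where the ± after a signal is the scanner's error. The difference was 2.74 ± 0.23 (6.69-fold), above 98.8% of measured genes, and its other probe was detected in Nrdc-cKO alone. Itga6, the laminin receptor of epithelium and endothelium, had levels of 3.23 and 4.86 by 2 probes in WT and 3.96 and 5.53 in Nrdc-cKO. It stood at 0.70 ± 0.14, within 2-fold in this scaling, which gave the lowest value of 9, and was past 2-fold in 6 of them, at 1.0 to 1.2 apart from 2.59 with spike-in scaling. A probe for another transcript of the gene was detected in Nrdc-cKO alone. Itgb4, the partner of Itga6 in hemidesmosomes, had levels of 4.55 and 4.08 and stood at -0.47 ± 0.20. Itga3, another epithelial laminin receptor, stood at -0.01 ± 0.19, and its probes disagreed in sign, at -0.44 and 0.42. Of 8 members with over 1 measured probe it was the single one whose probes did so.

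The collagen-binding alpha chains lay within 2-fold. Itga1, found on smooth muscle, stellate and endothelial cells, had probes at -0.48 and -0.30 and a difference of -0.39 ± 0.18. Itga11, the collagen receptor of fibroblasts, had levels of 0.41 and 0.86 and stood at 0.44 ± 0.21. Itga10, known from cartilage, stood at 0.80 ± 0.25 by 1 of its 2 probes. Itga2, the collagen receptor of epithelium and platelets, was not well above background on either array.

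The RGD motif is the short peptide in fibronectin, vitronectin and latent TGF-beta that a further group of integrins binds. Of its receptor chains, Itgav, Itgb1, Itgb3 and Itgb5 were measured on both arrays. Itgav, Itgb3 and Itgb5 passed 2-fold upwards and none downwards, against 12.8% and 17.3% of all measured genes. Itgav, an alpha chain with several beta partners, had levels of 1.48 and 2.57 and stood at 1.09 ± 0.20. Of its partners, Itgb3, also found on platelets and macrophages, was 2.40-fold higher (1.26 ± 0.24) and Itgb5 was 2.06-fold higher (1.04 ± 0.20). Itgav and Itgb5 lay within their technical error of the 2-fold line. The Itgb3 difference rests on 1 probe with a WT signal of 29.2, and its other probe was not well above background on either array. With normexp, Itgb3 stood at 0.62 when scaled to the 75th percentile and at 0.73 when quantile scaled. Itgb6, an epithelial chain known for activating TGF-beta, had a signal of 10.4 in WT, not well above background, and 77.4 in Nrdc-cKO by 1 of 2 probes. It was at least 2.12-fold higher, a bound near 2-fold that leaves out the scanner's errors of 2.9 and 8.3 of these signals. Itgb8 was not well above background on either array. Itgb1, the beta chain of most matrix receptors, stood at 0.28 ± 0.15, with its 2 probes at 0.26 and 0.30.

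The other RGD-binding chains were detected in Nrdc-cKO alone. Itga5, the fibronectin receptor, had signals of 10.2 and 59.3 and was at least 1.62-fold higher. Itga8, a receptor of nephronectin found on stellate and smooth muscle cells, had signals of 5.17 and 64.6 and was at least 1.77-fold higher. Itga2b, the platelet fibrinogen receptor chain, had signals of 4.35 and 22.6, which after scaling gave no bound above 1. Among the 7 members detected in Nrdc-cKO alone, the bound reached 2-fold for 2, Itgax and Itgb6, against 22.2% of all genes so detected.

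The leukocyte integrins and their relatives ran from 0.03 to 2.78, with 4 of 6 measured past 2-fold upwards. Itgb7, which pairs with Itga4 or Itgae on lymphocytes that home to or stay in mucosal tissue, had a signal of 16.6 ± 3.1 in WT and 366 ± 37 in Nrdc-cKO. Its difference of 2.78 ± 0.31 (6.85-fold) was the largest of the members in this scaling. Itga4, the receptor chain for Vcam1 and fibronectin on lymphocytes and monocytes, had signals of 18.7 ± 3.6 and 302 ± 30 and stood at 2.33 ± 0.31 (5.03-fold). The WT signals of both were close to 11.4, the lowest detected on that array. With normexp, Itgb7 stood at 1.32 and Itga4 at 0.93, the latter no longer past 2-fold, when scaled to the 75th percentile. When quantile scaled they stood at 1.52 and 1.17. Itga9, the close relative of Itga4 found on smooth muscle, lymphatic endothelium and neutrophils, had signals of 47.6 ± 5.4 and 607 ± 61 and stood at 1.99 ± 0.22, or 1.43 with normexp followed by quantile scaling.

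Itgb2 was past 2-fold, and of the chains that pair with it none measured on both arrays was. Itgb2, the common beta chain of leukocyte integrins, was 2.63-fold higher (1.40 ± 0.21), with levels of -0.32 and 1.08. Itgax, the chain of dendritic cells and tissue macrophages, had a signal of 2.89 in WT, not well above background, and 172 ± 17 in Nrdc-cKO, and was at least 4.69-fold higher. The second Itgax probe was not well above background on either array. Itgal, the chain of lymphocytes and monocytes, stood at 0.48 ± 0.29. Itgam, the chain of monocytes, macrophages and neutrophils, stood at 0.03 ± 0.20, from 1 probe with signals of 1743 and 5705. Its other probe, designed on another transcript accession, had signals of 9.25 and 27.4 and was detected in Nrdc-cKO alone. The Itgam difference therefore rests on 1 probe. Itgae, the chain of intraepithelial lymphocytes, had signals of 2.99 and 31.3 and no bound above 1 after scaling, and Itgad and Itgb2l were not well above background on either array.

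Itgam and Itgax are neighbours on chromosome 7 and are shown because their probes differed so far, with the motifs marked as above. The windows lie at chr7:128062390-128062639 and chr7:128129300-128129549, plus strand, in GRCm38.p6.
Itgam: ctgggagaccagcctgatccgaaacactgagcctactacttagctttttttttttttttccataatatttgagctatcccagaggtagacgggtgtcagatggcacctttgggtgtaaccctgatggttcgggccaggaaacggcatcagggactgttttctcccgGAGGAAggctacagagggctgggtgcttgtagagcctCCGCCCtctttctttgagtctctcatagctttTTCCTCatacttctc
Itgax: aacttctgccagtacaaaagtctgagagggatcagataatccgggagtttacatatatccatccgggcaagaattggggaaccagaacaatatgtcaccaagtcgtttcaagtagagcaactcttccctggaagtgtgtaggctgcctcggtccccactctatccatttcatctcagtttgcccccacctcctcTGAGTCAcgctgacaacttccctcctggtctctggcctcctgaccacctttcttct
The Itgam window held 2 PU.1 cores and 1 GC box. The Itgax window held 1 AP-1 motif, the single one among the 27 member windows, and no PU.1 core. A PU.1 core occurred in 14 of the 27 member windows, 51.9%, against 23.2% of all windows, among them windows of genes within 2-fold or not detected, and the AP-1 motif in 6.75% of all windows.

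Most measured ligands of integrins outside the laminin family were higher in Nrdc-cKO. Of 23 measured, 18 passed 2-fold upwards and 1 downwards (median 1.58), against 12.8% and 17.3% of all measured genes (median -0.18). Osteopontin, Spp1, a secreted ligand of Itgav and Itga9 integrins, stood at 2.88, the endothelial counter-receptor Vcam1 at 2.71 and the collagen chain Col1a2 at 2.18. Fibronectin, Fn1, was at 1.88, chosen after its value was seen, while the plasma ligand vitronectin, Vtn, was the lower member at -1.07. Madcam1, the counter-receptor of the Itga4 and Itgb7 pair, was not well above background on either array.

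Other basement membrane genes had a median of 0.98, and of 21 measured, 10 (47.6%) passed 2-fold upwards and 3 downwards. Of all measured genes, 12.8% passed it upwards and 17.3% downwards. The fibulin Efemp1 stood at 1.88 and Sparcl1 at 1.77, and Col7a1, the anchoring fibril collagen of epithelium, at -3.26. The nidogens, which link laminin to collagen IV, were at 1.33 for Nid1 and 1.1 for Nid2, and the collagen IV chains Col4a1 and Col4a2 at 0.64 and 0.93, all chosen after their values were seen. Laminin receptors other than integrins and their anchors had a median of 0.66, and of 15 measured, 7 (46.7%) passed 2-fold upwards and 0 downwards. The largest were the galectin Lgals3 (2.11), the syndecan Sdc1 (2.0) and Bcam (1.73), the receptor of Lama5.

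Of 42 measured genes of the intracellular machinery that integrins use, 7 (16.7%) passed 2-fold upwards and 1 downwards, with a median of 0.20. The share upwards was near the 12.8% of all genes. The largest differences were in adaptors of haematopoietic cells, Fyb (2.79) and Apbb1ip (2.09), and in caveolin, Cav1 (1.65). The focal adhesion kinase Ptk2 (0.14), the linker kinase Ilk (0.03) and paxillin, Pxn (0.18), chosen after their values were seen, lay within 2-fold. The 2 probes of Pxn disagreed in sign, at -0.41 and 0.77. Ptk2 was dim in WT, with a level of -2.18 where the lowest detected was -2.64. The kindlin of leukocytes and platelets, Fermt3, was detected in Nrdc-cKO alone and was at least 3.78-fold higher. The lower member was the talin Tln2 at -1.02.

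Markers of the cell types that carry these genes differed between the arrays as well. Markers counted as higher or lower in this paragraph and the next were past 2-fold, as were 12.8% and 17.3% of all measured genes. Macrophage markers passed 2-fold upwards in 10 of 11 measured genes (median 2.45), and their scaled signal, summed over all probes of the list whether detected or not, was 39.8 in WT and 133 in Nrdc-cKO. The largest difference among them was Ms4a7 at 3.21. Stellate cell and fibroblast markers were higher in 10 of 11 (median 1.78, summed signal 249 and 925), with Lum at 2.33, and smooth muscle and pericyte markers in 5 of 7 (median 1.54, summed signal 24.4 and 66.9), with Myh11 at 2.13. Endothelial markers were past 2-fold upwards in 5 of 12, and 11 lay above 0 (median 0.86, summed signal 20.8 and 43.1), from Pecam1 at -0.24 to Prox1 at 3.44. Schwann cell and nerve markers were higher in 2 of 3 (median 1.18, summed signal 23.4 and 31.3), and 4 more were detected in Nrdc-cKO alone. The bound reached 2-fold for 2 of these 4 and was 1.40-fold for Sox10. Mesothelial markers were past 2-fold upwards in 3 of 6, and 5 lay above 0 (median 1.0, summed signal 14.4 and 21.2), with Wt1 at 1.32. Their part in the differences of the integrin and laminin genes was not tested.

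Detection in Nrdc-cKO alone was seen for 7 of 12 T cell and 4 of 8 B cell markers, against 12.4% of all named genes. Of the T cell markers, 4 were measured, with 0 past 2-fold upwards and 2 downwards (median -1.0, summed signal 62.3 and 31.8) and Cd247 lowest at -1.69. The 7 detected in Nrdc-cKO alone all had a bound above 1, while Cd8a was detected on neither array. This bound reached 2-fold for 3 of the 7, against 22.2% of all genes so detected, and was highest for Cd2, at least 9.0-fold. Of 8 B cell markers, 3 were measured, with 1 lower (median -0.39, summed signal 2.56 and 8.56), Pax5 at -1.92. In Nrdc-cKO alone 4 were detected, and the bound reached 2-fold for 3 of them, among these Ms4a1, at least 9.42-fold higher, and Cd79b, at least 21.0-fold higher. Neutrophil markers had 2 of 9 measured, S100a9 at 3.82 and the other within 2-fold (median 1.80), and 6 in Nrdc-cKO alone (summed signal 107 and 98.8). Of these 6, 4 had a bound above 1. It reached 2-fold for 2, S100a8, at least 9.39-fold higher, and Camp, at least 7.10-fold higher. The probe of Csf3r alone made up 106 and 91.0 of the neutrophil sum. Of 8 dendritic cell markers 1 was measured, Siglech at -0.04, and 6 were detected in Nrdc-cKO alone, 4 with a bound above 1. Batf3, at least 4.40-fold higher, was the 1 whose bound reached 2-fold (summed signal of the list 225 and 221). The probe of Siglech made up 224 and 218 of that sum, so neither sum reads the dimmer markers. These marker genes other than the largest measured ones were chosen after their values were seen. Platelet markers had 1 of 5 measured genes higher and 1 lower, Gp6 at -1.78 (median -0.01, summed signal 10.3 and 29.1). Duct and simple epithelium markers had 1 of 10 past 2-fold upwards and 2 downwards, with Cftr at -1.59, and 8 lay above 0 (median 0.39, summed signal 427 and 255). Of the epithelial chains, Itgb4 and Itga3 lay within 2-fold. Itga6 and Lama5 lay within 2-fold in this scaling and past it upwards in 6 and 3 of 9. Lamb3 was at -1.33 and Itgb6 was at least 2.12-fold higher. The part of the duct and epithelial cells in these differences was not tested. Islet and adipocyte markers were higher in 10 of 12 and 3 of 4 measured genes, with medians of 3.54 and 3.64 and Ppy at 4.59 and Plin4 at 6.40. The adipocyte marker Lep went the other way, at -1.87. Another 5 adipocyte markers were detected in Nrdc-cKO alone, and the bound reached 2-fold for all 5. It ran from at least 27.2-fold for Plin1 to at least 1360-fold for Cfd. The summed signal of the adipocyte list was 21.3 in WT and 749 in Nrdc-cKO. Lep, Plin1 and Cfd were chosen after their values were seen.

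**Figure D3:**
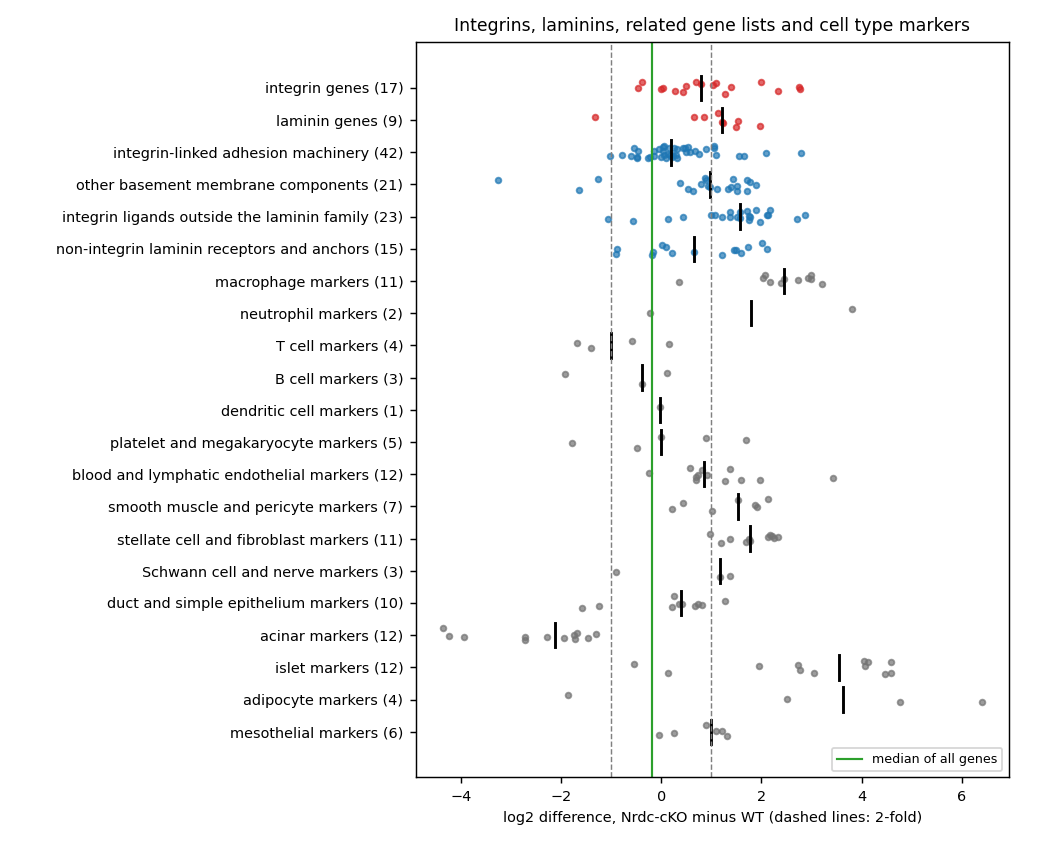
Log2 difference, Nrdc-cKO minus WT, of each measured gene of the integrins and laminins (red), 4 related gene lists (blue) and 15 cell type marker lists (grey), with the number measured in brackets and the median as a black bar. The median is 0.80 for integrins and 1.22 for laminins, 1.58 for other integrin ligands, 0.20 for the adhesion machinery and 2.45 for macrophage markers, against -0.18 for all genes (green line).

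The way the arrays were scaled changed the number of calls. Across 8 other scalings, the 14 genes past 2-fold stayed above 0, and 10 of them stayed past 2-fold in all 8. Those that did not were Itga4, Itgb3, Lama4 and Lamc3, each at 0.62 to 0.93 with normexp and the 75th percentile. Of the 8 scalings, 4 raise every gene by 1 constant, so a gene past 2-fold upwards could not drop out in them. Conversely, 4 genes within 2-fold passed it upwards in another scaling besides the spike-in one, Itga6, Lamc1, Lama5 and Itga10, in 6, 4, 3 and 2 of the 9 scalings. Lamb3 was between -1.33 and -0.78 without spike-in scaling and at 0.57 with it, where all 26 measured members lay above 0, Itga1, Itga3 and Itgb4 included. Of the members past 2-fold, 93.3% were higher in the main scaling, and 100% with spike-in scaling, the authors' value table and both normexp settings. Among all genes past 2-fold the share higher was 42.5% in the main scaling, 98.9% with spike-in scaling, 72.9% with the value table, and 52.1% and 58.0% with normexp, so it moved upwards as well. Spike-in scaling moved the median of all genes up by 1.89, the value table by 0.50, loess by 0.26, and quantile, detected-probe percentile and normexp scalings by 0.11 to 0.16. Relative to the all-gene median of the same setting, the median of the members was 1.24 in the main scaling. In 4 of the 8 others, which add 1 constant to every gene, this value cannot change, and in the 4 that can change it, it was between 0.92 and 1.30. The technical error left 4 genes on no clear side of the 2-fold line, Itga10, Itgav, Itgb5 and Lamb1.

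**Figure D4:**
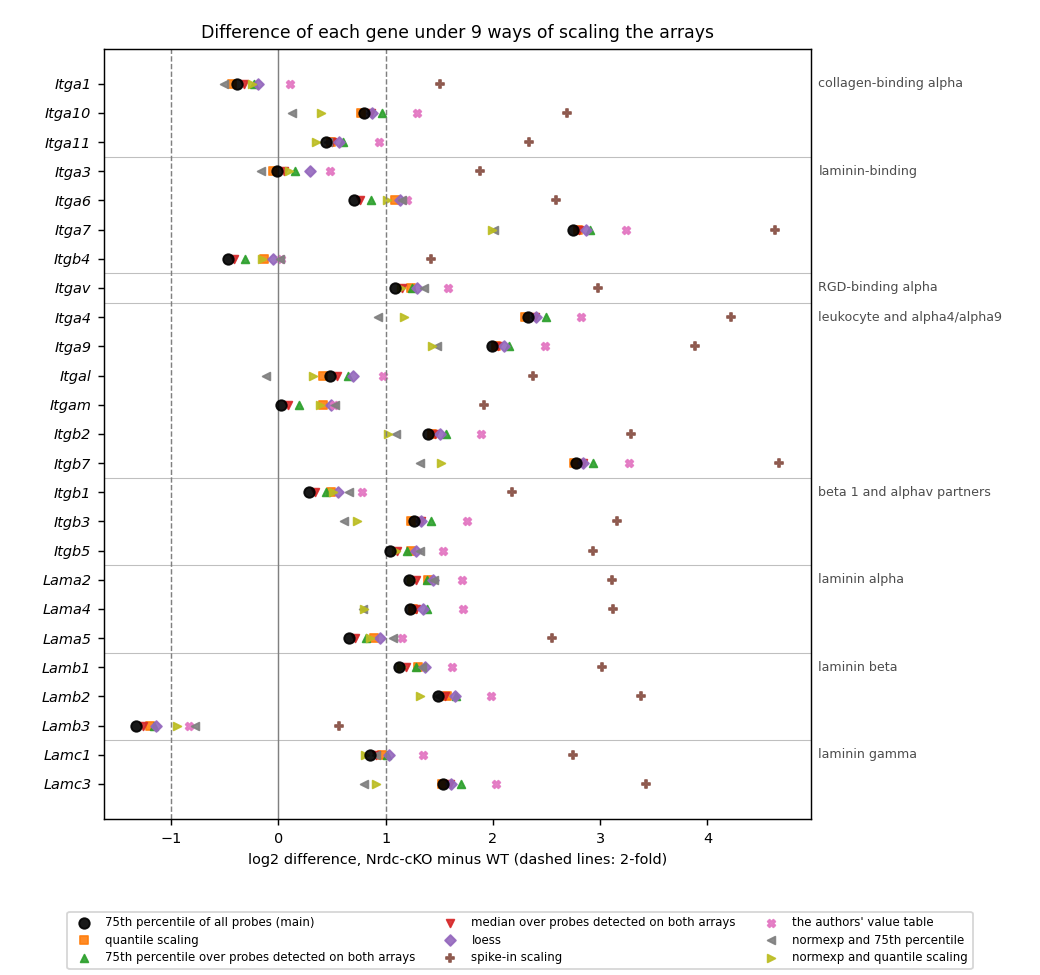
Log2 difference, Nrdc-cKO minus WT, of 25 of the 26 measured genes under 9 ways of scaling the arrays, with the main scaling as black circles and dashed lines at 2-fold. Spike-in scaling (brown crosses) lies 1.89 to the right of the main scaling for each gene drawn. Among others, Itgb7, Itga7, Itga4, Itgb3 and Lamc3 lie nearer to 0 with the normexp settings.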

How the data were processed

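Cy3-labelled cRNA from total RNA of whole pancreas was measured on Agilent mouse arrays, 1 per group, per the labels. The authors deposited scanner files with a processed intensity per spot, corrected for background and spatial trend within the array by Agilent Feature Extraction 12.0.3.1 per the file headers (11.5.1.1 per the submitters' processing notes), and not normalized between arrays, with 0 or 1 flags for outliers, saturation and signal well above background as other columns. Their deposited value table held the processed intensity times a constant for each array (4.37 in WT, 1.92 in Nrdc-cKO), with medians of 42.5 and 66.0. It is linear and not centred, and the sources used here do not give the basis of the constants.

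Of 59305 non-control spots, outliers (80 and 74) were left out, and no member spot was saturated. Intensities were put on a log2 scale, repeat spots averaged and the 75th percentile of each array's 56604 probes subtracted. A probe was detected when a share of 0.5 or more of its spots stood well above background, which 46.3% of spots did in WT and 60.3% in Nrdc-cKO. A gene's difference was the mean over probes detected on both arrays, counted when past 2-fold. A gene detected on 1 array was given a bound against the higher of the other array's lowest detected level and its own signal there. The share of probes above background limits what the arrays can show.

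RefSeq accessions, without versions, were matched to the GRCm38.p6 gene table for 32993 of 35885 probes that carried one. The rule names every member, the 3 largest differences of each of 4 related lists, and a count, median and largest difference for each of 15 cell type marker lists. A few genes are included in the counts and medians, but their own values are not reported here. The members and lists were chosen with earlier results of these data known. Python 3.11.15, numpy, pandas and limma 3.58.1 (normexp, offset 50, on the median spot signal, and loess) were used. The calculation was tested on simulated data. Scaling, background correction, the filter on dim probes, the choice of probe and the fold threshold were varied.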

Additional observations from a re-analysis of the deposited data

How the results depend on the processing

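No paired analysis was possible because there was 1 array per group, and no replicate could be left out. In each of these alternatives the cause was not tested, apart from the thresholds and filters, which change counts by construction. Spike-in scaling, which adds 1.89 to every gene, gave 25 members past 2-fold upwards, as were 79.8% of all genes, and 0 downwards, a median of 2.96, Lamb3 at 0.57 and Nrdc at -1.32. The authors' value table gave 0 downwards, against 8.26% of all genes, a median of 1.56 and Nrdc at -2.71. Normexp followed by the 75th percentile or by quantile scaling gave 0 downwards each, against 8.81% and 6.51% of all genes, with Nrdc at -2.23 and -2.20. Loess gave a median of 1.28. With no filter on dim probes all 38 members had a value, 15 past 2-fold upwards and 5 downwards, with a median of 0.68. Of all 22911 genes in that setting, 13.6% were upwards and 35.0% downwards, with a median of -0.46. Dim probes there carry no measured difference. Bright probes only left 19 members, 9 upwards and 1 downwards, with a median of 0.85, against 9.42% and 17.4% of 10077 genes. At 4-fold, 3 members were upwards and 0 downwards, and the share of all genes past 4-fold was not computed. Of 279 values of single measured members under the alternatives, 1 changed the sign of a 2-fold call (Lamb3, above), 159 lay within the technical error of the main value and 119 moved further. Centring on the median of all genes was chosen after seeing the data. Detection limits the 12 members not measured on both arrays, for which these arrays give a bound or nothing.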
